A study of Mus musculus with 3 samples.

Results

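The B cell receptor signals through a membrane immunoglobulin and its coreceptors, and 9 genes of that apparatus were followed here among 32285 genes listed for each library. Cd79a and Cd79b encode the 2 chains of the signalling heterodimer that carries membrane immunoglobulin. Cd22 and Cd72 encode inhibitory coreceptors, Cr2 the complement receptor of the coreceptor complex, and Cd81 the tetraspanin of that complex. Syk and Btk encode kinases, and Blnk the adaptor that links them. All 9 were chosen by name and all were found in every library.

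When antigen binds, Syk is recruited to the phosphorylated tails of the Cd79a and Cd79b proteins and phosphorylates Blnk, which brings Btk to its substrate. Cr2, in a complex with Cd81, lowers the threshold for that signal when antigen carries complement, whereas Cd22 and Cd72 recruit phosphatases that dampen it. Mature follicular B cells are known to carry Cr2, B1 cells to carry little of it, and plasma cells to have lost most of the receptor apparatus. In the artery wall, B cells lie mainly in the outer layer, the adventitia.

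Single-cell RNA-seq libraries were made from live CD45+ cells (the leukocyte surface marker) sorted from digested whole aortas of ApoE-/- mice on the C57BL/6J background, a genotype without apolipoprotein E that is prone to atherosclerosis. One library came from untreated ApoE-/- mice (control), one from mice labelled HHcy (hyperhomocysteinaemia), that drank water with homocysteine (1.8 g/L) over 4 weeks, and one from mice fed a western diet (WD) for 4 weeks. All groups, controls included, thus carry the ApoE-/- label. The number of animals pooled, their sex and their age are not in the labels. With 1 library in each group, no difference between groups has a replicate check and none was tested. Every interval below covers counting error at the 95% level only, and levels are UMIs (unique transcript molecules) per 1000000 UMIs of the cells summed, or CPM.

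The libraries held 7512 (control), 9753 (HHcy) and 8557 (WD) barcodes, and 5429, 6463 and 5381 cells were used after filtering. Apoe stood at 16.3 CPM in the control library and 19.3 CPM in the WD library, but at 374 CPM in the library labelled HHcy, which goes against its genotype label. Barcodes carrying the markers of more than 1 lineage made up 10.1% of control, 20.7% of HHcy and 19.8% of WD barcodes that passed the filters and were left out. Of these multiplets, 462, 1429 and 973 carried B cell markers. Pairs of libraries shared 14 to 18 barcodes, at most 3 of them among B cells. A UMI of Ptprc, which encodes CD45, was found in 93.4%, 93.5% and 90.8% of the cells used, and in 17.1% to 23.2% of stromal- and endothelial-like cells, which the sort should have removed.

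B cell-like cells numbered 2283 (control), 3786 (HHcy) and 1280 (WD), with median depths of 7576, 6469.5 and 6700 UMIs per cell. They were found by clustering without the 9 genes, and all 15 B cell markers, which also named them, were higher in them than in T, NK or innate lymphoid cell-like cells. Re-clustering gave 9 sub-clusters, of which 5 could be named from markers. These formed an immature or transitional B-like subset, a naive follicular B-like subset and a B1-like subset (innate-like B cells). Naive follicular B-like cells were 30.6% (control), 68.4% (HHcy) and 36.3% (WD) of B cells. B1-like cells were 41.8%, 14.7% and 31.4%, and immature or transitional B-like cells 12.0%, 5.02% and 17.6%, in the same order. Against the other B cells, 9 of 9 markers were higher in the B1-like subset and 6 of 8 in each of the other subsets. The exceptions were Dntt and Igll1, at 0.268 and 0 CPM in the immature or transitional subset, and Klf2 (718 against 1128 CPM) and Cxcr5 (128 against 199.8 CPM) in the naive follicular subset. The B1-like subset joined sub-cluster 2, led by Zcwpw1, and sub-cluster 3, led by S100a4 and Socs3. The haemoglobin genes Hbb-bs, Hba-a1 and Hba-a2 were among the 10 leading genes of both, beside 1 B1 marker each (Ctla4 and S100a6). Hbb-bs stood at 282 and 335 CPM there and at 2.09 to 3.21 CPM in the other named sub-clusters, but its UMIs lay in 7 to 13 cells of each library and sub-cluster. All subset names are rebuilt from marker genes, so they may differ from the study's own.

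All 9 are protein-coding genes in the GENCODE annotation of build mm10. Cd79a lies at chr7:24897381-24902197, Cd79b at chr11:106311341-106314762, Cd22 at chr7:30865402-30880342, Cr2 at chr1:195136811-195176716 and Cd72 at chr4:43446462-43454628. Cd81 lies at chr7:143052739-143067934, Btk at chrX:134542336-134583570, Blnk at chr19:40928927-40994535 and Syk at chr13:52583173-52648792. Cd22, Cd72, Cd81 and Btk each overlap another annotated gene, so reads could be shared there.

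Promoter sequences show where the genes that vary most between B cell subsets start. RefSeq windows of 250 bases before to 50 bases after the start (build GRCm38.p6) matched 8 of the 9 genes, Syk with 2 windows and Cd79b with none. Each was searched on both strands for 4 motifs bound by B lineage factors: the EBF core CCCNNGGG, the octamer ATTTGCAT, the E-box CAGGTG and the PU.1 core GAGGAA. Among all 32851 windows of this length, 13.7%, 1.74%, 20.2% and 28.3% hold them. The 4 windows below belong to the signalling chain gene Cd79a, the 2 genes that differed most between subsets (Cr2 and Cd72), and Blnk, the only member with an octamer match; capitals mark motif matches.

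Cd79a: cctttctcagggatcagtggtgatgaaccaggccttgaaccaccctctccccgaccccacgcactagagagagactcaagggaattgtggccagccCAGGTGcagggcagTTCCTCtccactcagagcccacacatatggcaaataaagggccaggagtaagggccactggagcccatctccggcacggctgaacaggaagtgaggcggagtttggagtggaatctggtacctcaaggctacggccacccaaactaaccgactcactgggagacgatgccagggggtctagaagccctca
Cr2: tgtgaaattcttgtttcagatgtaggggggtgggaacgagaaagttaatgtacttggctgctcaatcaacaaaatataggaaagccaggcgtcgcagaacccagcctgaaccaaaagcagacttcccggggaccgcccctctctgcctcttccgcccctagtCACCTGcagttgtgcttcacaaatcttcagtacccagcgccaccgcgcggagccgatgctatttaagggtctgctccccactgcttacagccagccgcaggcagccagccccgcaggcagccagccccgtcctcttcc
Cd72: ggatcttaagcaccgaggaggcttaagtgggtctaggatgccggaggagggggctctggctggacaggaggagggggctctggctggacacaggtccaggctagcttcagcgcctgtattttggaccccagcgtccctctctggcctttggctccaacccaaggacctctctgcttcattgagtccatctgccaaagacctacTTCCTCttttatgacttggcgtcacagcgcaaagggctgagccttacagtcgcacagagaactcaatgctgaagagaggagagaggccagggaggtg
Blnk: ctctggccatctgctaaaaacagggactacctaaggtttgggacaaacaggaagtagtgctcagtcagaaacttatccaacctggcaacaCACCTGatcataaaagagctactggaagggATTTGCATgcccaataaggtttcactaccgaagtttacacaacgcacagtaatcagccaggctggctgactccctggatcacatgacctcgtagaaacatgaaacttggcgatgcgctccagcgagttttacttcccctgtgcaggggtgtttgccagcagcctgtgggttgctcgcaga

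These windows lie at chr7:24897247-24897546 (plus strand), chr1:195176670-195176969, chr4:43454577-43454876 and chr19:40994172-40994471 (minus strand for the last 3). The Cd79a window holds an E-box and a PU.1 core, the Cr2 window an E-box, the Cd72 window a PU.1 core, and the Blnk window an octamer and an E-box. Cr2 and Cd72, whose levels moved together between naive follicular B-like and B1-like cells, share none of these 4 matches. Of the other windows, that of Cd22 holds an EBF core and an E-box, that of Cd81 has 2 EBF cores, and that of Btk a PU.1 core. Each Syk window holds an E-box, and the one at chr13:52596632-52596931 also a PU.1 core. A match says only that these letters occur.

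Across cell classes, Cd79a and Cd79b were almost restricted to B cell-like cells. Cd79a stood at 1678 CPM in control, 2055 CPM in HHcy and 1949 CPM in WD B cells. In T, NK or innate lymphoid cell-like cells, which should lack it, Cd79a stood at 33.3, 44.4 and 24.4 CPM, which serves as the background. UMIs of both chains were found in 3 of 202, 10 of 277 and 6 of 224 of those lymphoid cells. Whether free RNA or remaining multiplets gave these UMIs was not tested. Cd79b was at 912, 888 and 1151 CPM in B cells, against 27.6 to 32.4 CPM in the lymphoid background. Cd22 stood at 191, 226 and 195 CPM in B cells and at no more than 14.7 CPM in any other class with 20 or more cells in all libraries. Cr2 stood at 68.4, 141 and 70.0 CPM in B cells, against 1.63, 8.53 and 2.27 CPM in T, NK or innate lymphoid cell-like cells. The B cell values of these 4 genes, and those of Btk, Blnk and Syk, did not overlap those of the next class. Only classes with 20 or more cells in every library were compared. The share of all genes without such overlap is not given. Endothelial-like cells, too few in the control library, held Cr2 at 133 CPM in 32 WD cells, all of it in 1 cell.

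Syk, the kinase used by many myeloid receptors as well, was high in B cells and in neutrophils. Its B cell levels were 454, 370 and 428 CPM, and those of neutrophil-like cells 325, 345 and 319.5 CPM. Macrophage/monocyte-like cells followed at 203 to 252 CPM. Btk was at 75.1, 64.6 and 65.6 CPM in B cells and 36.6 to 44.7 CPM in macrophage/monocyte-like cells. In the library labelled HHcy, mast cell-like cells were above B cells in Btk. Blnk was at 191, 201 and 198 CPM in B cells and 49.6 to 83.7 CPM in macrophage/monocyte-like cells. In the 36 plasmacytoid dendritic cell-like cells of the library labelled HHcy, Blnk reached 328 CPM, above its B cell level there; the other libraries had too few such cells to compare.

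Cd72 and Cd81 were also high outside B cells. Cd72 stood at 129, 211 and 196 CPM in B cells and at 159, 111 and 288 CPM in macrophage/monocyte-like cells, so the order of the 2 classes changed with the library. Within macrophages, Cd72 was concentrated in the cluster led by Ms4a7, Mmp12 and Trem2, at 695, 582 and 733 CPM. That cluster held 279, 165 and 783 cells of the 3 libraries. In the cluster led by Cd163, Folr2 and Lyve1, which are genes of resident macrophages, Cd72 stood at only 81.4, 50.8 and 97.9 CPM. Cd81 was highest in stromal-like cells, at 670, 812 and 771 CPM, and reached 687, 763 and 686 CPM in the Folr2 and Lyve1 macrophage cluster. B cells were lower in Cd81, at 116, 139 and 139.9 CPM, and their range overlapped that of conventional dendritic cell-like cells.

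**Figure D1:**
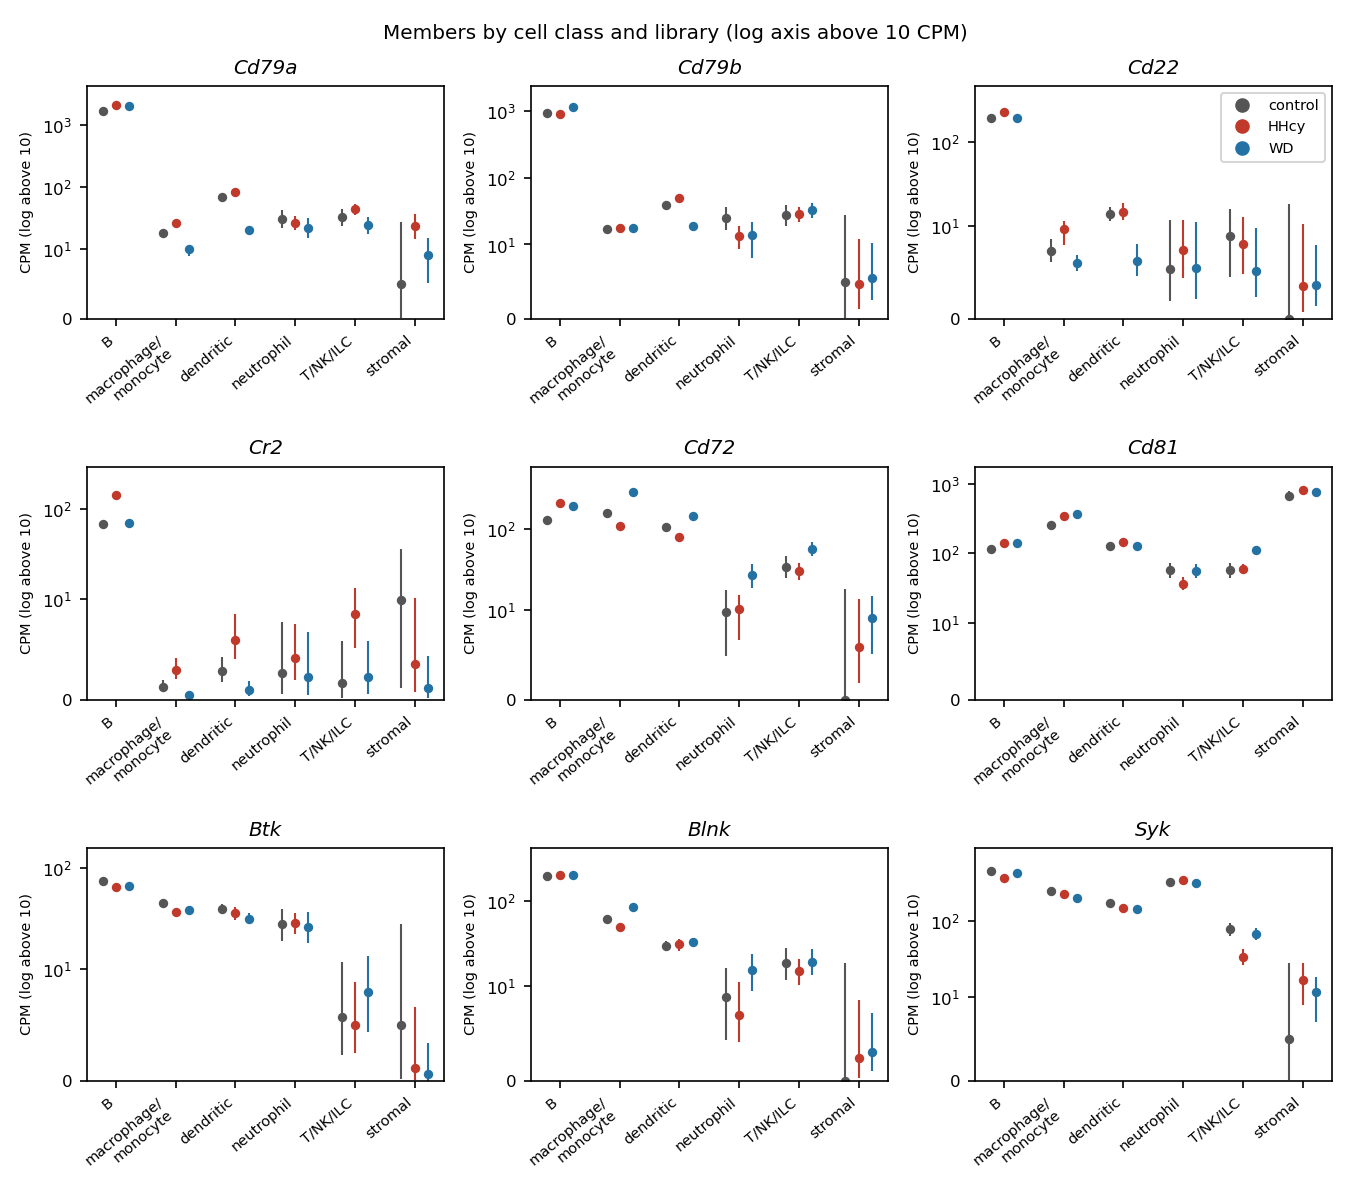
Level of each of the 9 genes (CPM, linear to 10 and logarithmic above) in 6 cell classes with 20 or more cells in every library; points are single libraries and bars are exact Poisson intervals. Cd79a, Cd79b, Cd22, Cr2, Btk, Blnk and Syk were highest in B cells among these 6 classes, Cd81 in stromal-like cells.

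**Figure D2:**
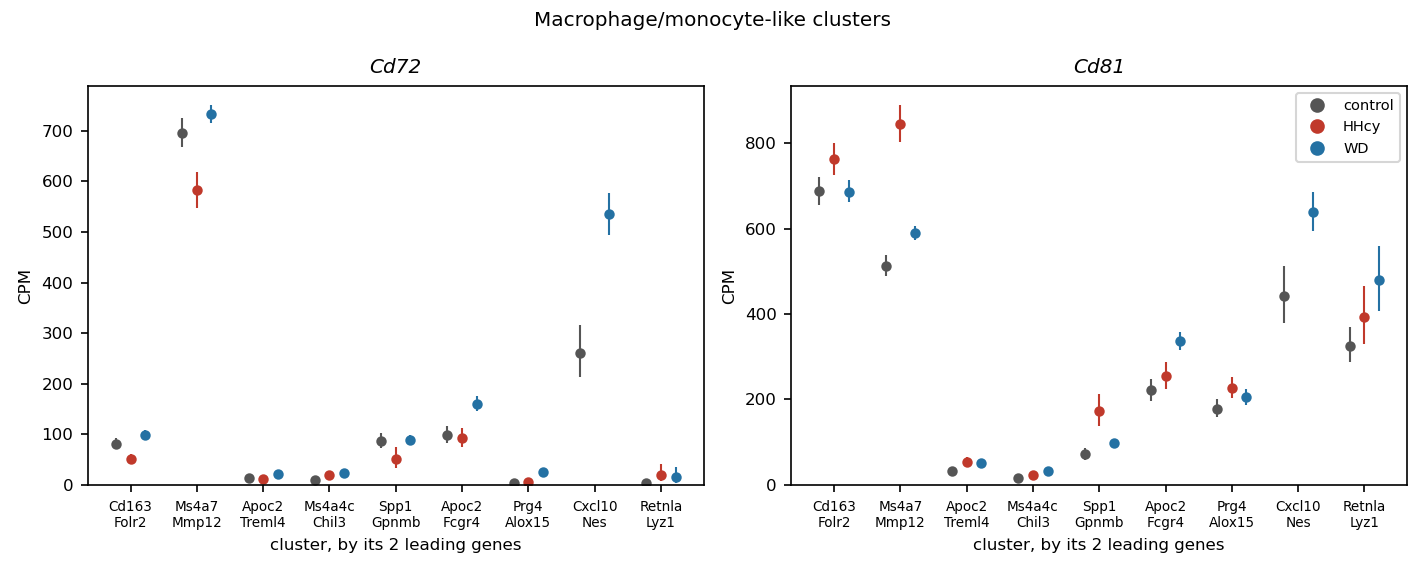
Levels of Cd72 and Cd81 (CPM) in the macrophage/monocyte-like clusters, by library, with exact Poisson intervals, for clusters with 20 or more cells of a library. The cluster led by Ms4a7 and Mmp12 reaches 582 to 733 CPM of Cd72, while Cd81 is high in several clusters.

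Plasma cell-like cells, the antibody-secreting stage, held UMIs of the signalling chains and of Cd81, but few of Cd22, Cr2 and Cd72. Their 70 cells in the library labelled HHcy held Cd79a at 263 CPM and Cd79b at 257 CPM. Cd22 was at 8.84 CPM, Cr2 at 3.54 CPM and Cd72 at 12.8 CPM there. The lymphoid cells of that library held these genes at 8.08, 8.53 and 30.5 CPM, with overlapping intervals for Cd22 and Cr2 and a higher interval for Cd72. Blnk was at 168 CPM and Cd81 at 149 CPM in the plasma cell-like cells, against 139 CPM of Cd81 in B cells of the same library. The control and WD libraries held only 14 and 15 such cells.

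Among the 3 named B cell subsets, the immature or transitional B-like subset had the highest CPM of most of these genes. Cd79a stood there at 2965, 3376 and 3192 CPM (control, HHcy, WD). In naive follicular B-like cells it was at 2068, 2230 and 2099.9 CPM, and in B1-like cells at 1498, 1797 and 1634 CPM. The 3 subsets did not overlap between libraries. Cd79b followed another order, with 2086, 2311 and 2394 CPM in immature or transitional B-like cells, 910, 1079 and 1058 CPM in B1-like cells, and 686, 757 and 856 CPM in naive follicular B-like cells. Of the 9 genes, 5 (Cd79a, Cd79b, Cd72, Btk and Blnk) were highest in the immature or transitional subset in every library, although for Btk the interval overlapped that of the naive follicular subset in each. The share of all genes highest in that subset is not given. CPM is a share of the UMIs summed, not a count per cell, and depths differed. Median depths were 5068, 5012.5 and 5141 UMIs in immature or transitional B-like cells and 10962, 12213.5 and 11179.5 UMIs in B1-like cells.

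Cd79b UMIs per Cd79a UMI also differed between the subsets. Capture may differ between the 2 transcripts, so the quotient is compared only between cells. The quotient was 0.70, 0.68 and 0.75 in immature or transitional B-like cells and 0.61, 0.60 and 0.65 in B1-like cells. In naive follicular B-like cells it was 0.33, 0.34 and 0.41. Those follicular cells were made of 2 sub-clusters that differed in it. The one led by Satb1 and Neurl3 stood at 0.25, 0.26 and 0.31, and the one led by Pxdc1, whose Cr2 was higher, at 0.46, 0.50 and 0.53. Over all B cells the quotient was 0.54 in control, 0.43 in HHcy and 0.59 in WD. The library richest in follicular cells was lowest. WD was above control although its follicular share was higher (36.3% against 30.6%). The part of the subset mix in the quotient was not tested.

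**Figure D3:**
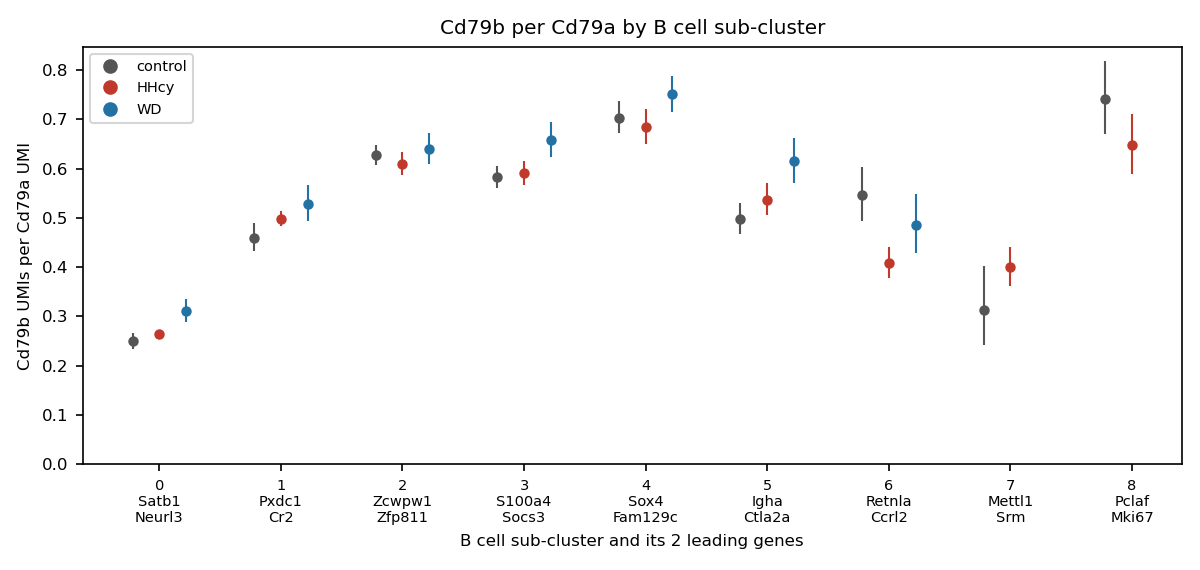
Cd79b UMIs per Cd79a UMI in each B cell sub-cluster and library, with exact intervals, for sub-clusters with 20 or more cells of a library. Sub-cluster 0, naive follicular B-like, is lowest in every library, at 0.25 to 0.31.

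Cr2 and Cd72, the complement receptor and an inhibitory coreceptor, differed most between subsets. Among the 3 named subsets, Cr2 was highest in naive follicular B-like cells, at 237, 208 and 195 CPM, and stood at 45.5, 52.1 and 54.4 CPM in the immature or transitional subset. In B1-like cells it was at 9.55, 19.5 and 7.46 CPM. Cd72 stood at 609, 745 and 786 CPM in the immature or transitional subset, 244, 251 and 251 CPM in naive follicular B-like cells and 28.6, 54.1 and 28.8 CPM in B1-like cells. B1-like over naive follicular, the log2 ratio of Cd72 was -3.10, -2.21 and -3.13 in the 3 libraries, and that of Cr2 was -4.63, -3.42 and -4.71.

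The low B1-like levels were set beside those of the lymphoid cells, which should lack Cr2. Lymphoid cells with 5 or more Cd72 UMIs held 19.0%, 8.82% and 25% of the lymphoid Cd72 UMIs (control, HHcy, WD). Whether the lymphoid Cd72 is background was not tested. For Cr2, the B1-like level of 9.55 CPM in control (interval 7.82 to 11.5) lay above the 1.63 CPM of the lymphoid cells (0.197 to 5.87). In HHcy the 19.5 CPM (16.4 to 22.9) also lay above the lymphoid 8.53 CPM (5.13 to 13.3), whereas in WD the intervals of 7.46 CPM (5.19 to 10.4) and 2.27 CPM (0.619 to 5.82) overlapped. For Cd72, the intervals of the B1-like and lymphoid levels overlapped in control (28.6 and 34.1 CPM). The B1-like level was the higher one in HHcy (54.1 and 30.5 CPM) and the lower one in WD (28.8 and 56.8 CPM).

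The shares of cells with a UMI were also compared. At their own depth, 7.43%, 15.1% and 7.71% of B1-like cells had a Cr2 UMI, against 0.99%, 5.78% and 1.79% of lymphoid cells, and 18.8%, 28.1% and 22.1% had a Cd72 UMI, against 15.3%, 18.8% and 25.4%. Median depths of the cells that could be thinned to 2000 UMIs were 10963, 12240 and 11179.5 UMIs in B1-like cells and 5033, 6506.5 and 5792 UMIs in the lymphoid cells. After thinning, 1.78%, 4.13% and 1.49% of B1-like cells had a Cr2 UMI, against 1.12%, 0.75% and 0.98% of lymphoid cells, each lymphoid share resting on 2 cells. For Cd72 the thinned shares were 5.87%, 8.44% and 6.72% against 8.38%, 4.14% and 10.8%. All thinned intervals overlapped. Thinning also removes more of any free RNA from the deeper B1-like cells, so these shares do not settle whether the B1-like UMIs are background.

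Cd22, the sialic acid-binding inhibitory receptor, was highest in naive follicular B-like cells, at 296, 267 and 261 CPM, and lowest in B1-like cells, at 153, 155 and 141 CPM. Its immature or transitional level, 223, 225 and 216 CPM, lay between. Cd81 alone was highest in B1-like cells in every library, at 117, 150.2 and 147 CPM. However, its interval overlapped that of the immature or transitional subset in each library. Blnk ranged from 281 to 294 CPM in the immature or transitional subset, from 206 to 224 CPM in naive follicular B-like cells and from 159 to 172 CPM in B1-like cells, without overlap. Syk was lowest, among the 3 subsets, in naive follicular B-like cells, at 386, 350.0 and 382 CPM. It reached 603, 544 and 557 CPM in the B1-like sub-cluster led by S100a4 and Socs3, but 419, 359 and 425 CPM in the B1-like sub-cluster led by Zcwpw1.

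**Figure D4:**
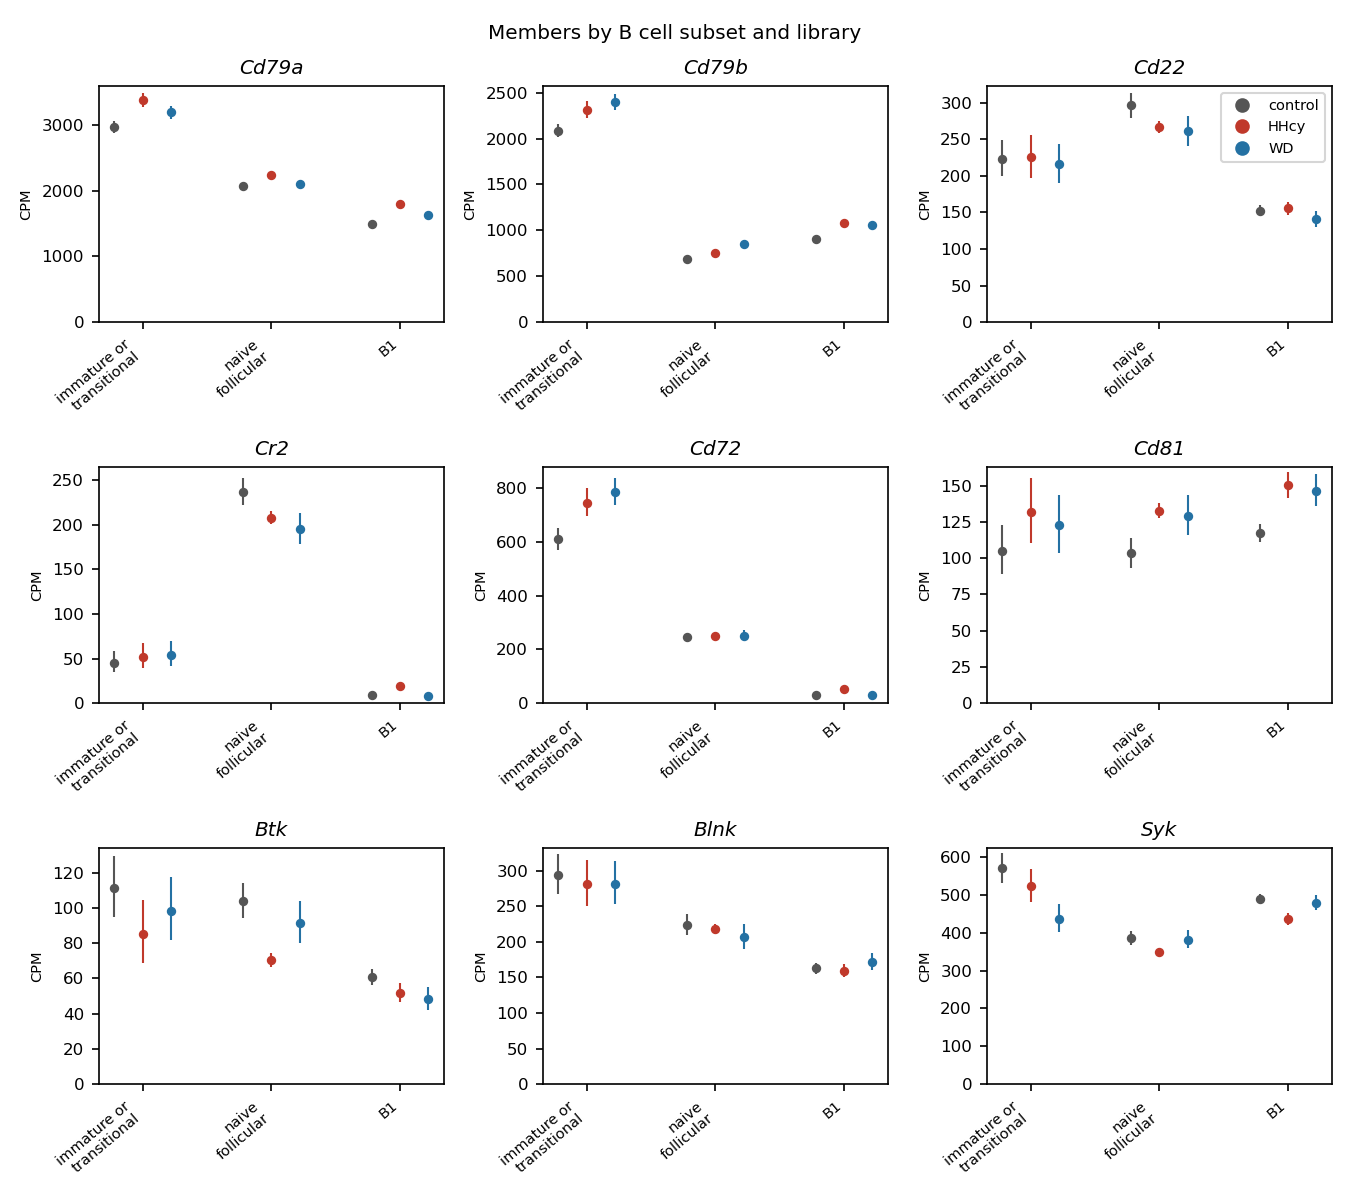
Level of each of the 9 genes (CPM, axes from 0) in 3 B cell subsets; points are single libraries and bars are exact Poisson intervals. Cr2 is highest in naive follicular B-like cells, at 195 to 237 CPM, and Cd72 in the immature or transitional subset, at 609 to 786 CPM.

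Most B cells carried several of these transcripts. At 2000 UMIs per cell, a Cd79a UMI was found in 94.6%, 97.1% and 97.0% of B cells, against 3.91%, 6.77% and 4.41% of T, NK or innate lymphoid cell-like cells. The median B cell had UMIs of 4 of the 9 genes in every library, and both chains of the heterodimer were seen in 71.6%, 72.6% and 79.7% of B cells. For 8 of the 9 genes the share of B cells was above that of the lymphoid cells beyond counting error in all 3 libraries. The exception was Cd81, at 21.7% against 16.2% in the WD library. The share of all genes above the lymphoid cells in this way is not given, so the count is not particular to these genes.

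Between libraries, summed over all B cells, Cr2 and Cd72 differed most from the control. Cr2 stood at 68.4 CPM in control and 141 CPM in the library labelled HHcy, a log2 ratio of 1.04 (interval 0.96 to 1.13), and at 70.0 CPM in WD, a log2 ratio of 0.03 (-0.10 to 0.16). Cd72 had log2 ratios of 0.71 (0.65 to 0.78) in HHcy and 0.60 (0.52 to 0.69) in WD over control. Past an absolute log2 ratio of 0.5 were 2 of the 9 genes in HHcy over control, where 15.8% of all 11187 genes with 50 or more UMIs were. In WD over control it was 1 gene (Cd72), against 8.63% of genes, and in HHcy over WD 1 gene (Cr2, log2 ratio 1.01), against 13.6%. With each cell weighted equally in place of its depth, HHcy over control was 0.74 for Cr2 and 0.37 for Cd72, so that only Cr2 passed. With each cell thinned to 1000 UMIs it was 0.47 (0.26 to 0.69) for Cr2 and 0.44 (0.27 to 0.61) for Cd72, so that neither passed. The share of all genes past the limit with equal weights or thinning is not given.

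The other 7 genes stayed within that limit in all 3 pairs of libraries. Cd79a was higher than control by 0.29 in HHcy and 0.22 in WD (log2 ratios), and Cd79b by 0.34 in WD, with -0.04 in HHcy. Syk stood at -0.29 in HHcy and -0.09 in WD, Btk at -0.22 and -0.20, and Cd81 at 0.26 and 0.27. Blnk was the steadiest, at 0.07 and 0.05.

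With the same mix of B cell subsets given to every library, none of the 9 genes passed the limit in any pair, where 9.34% (HHcy over control), 8.35% (WD over control) and 8.94% (HHcy over WD) of all genes did. Cr2 then stood at -0.08 in HHcy over control and -0.28 in WD over control, and Cd72 at 0.22 and 0.16. The sign of Cr2 in HHcy over control was thus opposite to that over all B cells as summed. The share of naive follicular B-like cells, the subset with most Cr2, was 68.4% in the library labelled HHcy and 30.6% in control. Markers of other cells were also found in the B cells. The macrophage genes Lyz2 and C1qa stood at 152, 173 and 189 CPM and at 36.9, 48.4 and 73.8 CPM (control, HHcy, WD). The neutrophil gene S100a8 was at 25.6, 76.9 and 41.9 CPM and Hbb-bs at 169, 58.3 and 181 CPM. The T cell gene Cd3e was below 1 CPM in all 3. The part of these markers in the ratios was not tested.

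**Figure D5:**
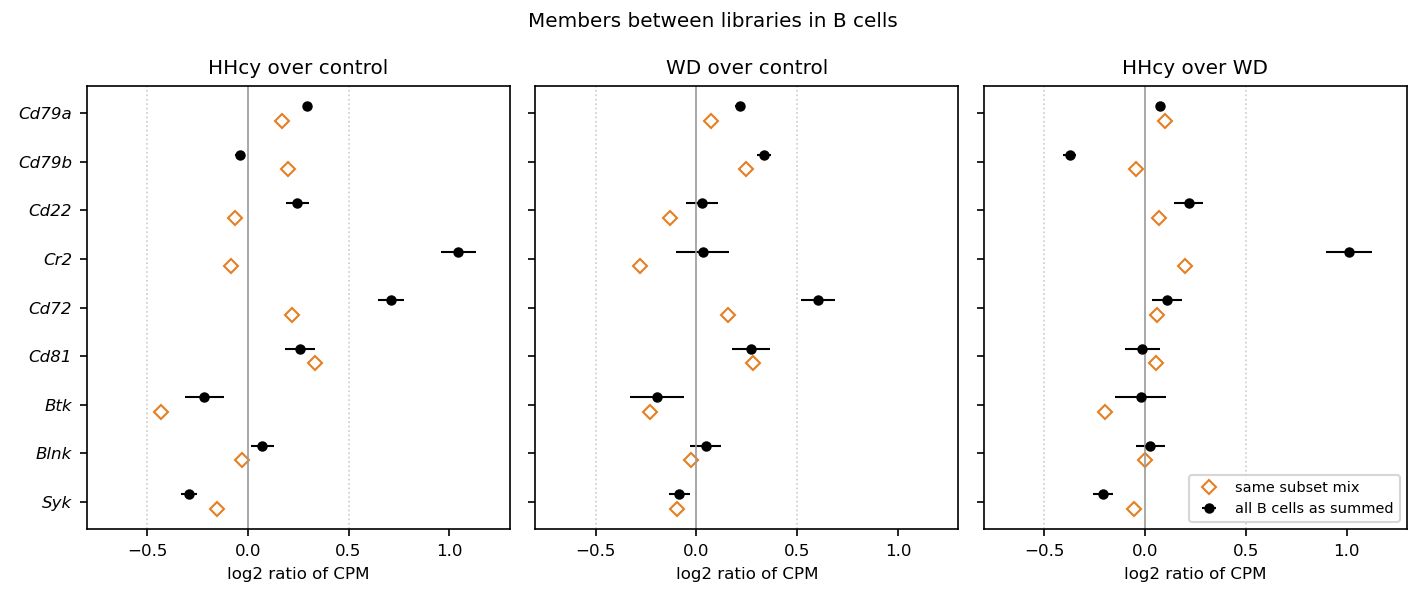
Log2 ratio of CPM between libraries in B cells for the 9 genes. Filled points are all B cells as summed, with exact intervals, and diamonds the same subset mix in every library; dotted lines mark 0.5 in either direction. Cr2 in HHcy over control is 1.04 as summed and -0.08 with the same mix.

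Inside the subsets, Cr2 and Cd72 in the B1-like sub-clusters and Btk in naive follicular B-like cells passed the limit. In the immature or transitional subset none passed the limit in any pair, where 12.2% (HHcy over control), 11.4% (WD over control) and 12.3% (HHcy over WD) of genes did. In naive follicular B-like cells only Btk passed, at 70.5 CPM in HHcy against 104 CPM in control, a log2 ratio of -0.56 (-0.72 to -0.39), where 13.7% of genes passed. In this subset no member passed in WD over control (8.59% of genes) or in HHcy over WD (14.3%). Centred on the median ratio of all genes, Btk in HHcy over control was at -0.49 and did not pass.

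Because both B1-like sub-clusters had more genes of the erythroid marker list than of the B1 list among their leading genes, libraries were compared there by sub-cluster. In sub-cluster 2, Cr2 stood at 8.89, 20.3 and 4.33 CPM and Cd72 at 35.3, 57.1 and 34.3 CPM (control, HHcy, WD). HHcy over control was 1.19 (0.70 to 1.69) for Cr2 and 0.69 (0.43 to 0.96) for Cd72, where 10.8% of genes passed, and HHcy over WD 2.23 and 0.74, where 9.46% did. In WD over control Cr2 passed downwards, at -1.04 (-2.07 to -0.13) on 12 and 61 UMIs, where 10.1% of genes passed. In sub-cluster 3, Cr2 stood at 10.6, 18.4 and 12.0 CPM and Cd72 at 17.7, 49.8 and 20.8 CPM. HHcy over control was 0.79 (0.20 to 1.39) for Cr2 and 1.495 (1.09 to 1.91) for Cd72, where 10.3% of genes passed. HHcy over WD was 0.62 (-0.11 to 1.39) for Cr2 and 1.26 for Cd72, where 10.4% did. In WD over control no member passed there (11% of genes). With both sub-clusters summed, 2, 0 and 2 of the 9 genes passed in HHcy over control, WD over control and HHcy over WD, against 8.36%, 7.85% and 7.42% of genes. Thinned to 1000 UMIs, the sum gave 0.64 for Cr2 and 0.65 for Cd72 in HHcy over control, with intervals that held 0. In HHcy, 25 of 558 B1-like cells held 47.6% of the Cd72 UMIs with 5 or more each, and in control 11 of 955 held 24.6%. Without the UMIs of such cells, Cd72 stood at 21.5, 28.3 and 24.5 CPM in B1-like cells (control, HHcy, WD). In the lymphoid cells Cr2 stood at 1.63, 8.53 and 2.27 CPM and Cd72 at 34.1, 30.5 and 56.8 CPM. The lymphoid Cr2 was thus also higher in HHcy than in control. The part of background in the B1-like ratios was not tested.

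Shifts that had 1 direction in all 3 subsets as summed were also seen, most of them small. Cd79a and Cd79b were higher in both treated libraries than in control in all 3 subsets, by 0.02 to 0.26 and by 0.14 to 0.32 (log2 ratios). The interval lay above 0 in 5 of 6 of these ratios for Cd79a and in all 6 for Cd79b. Cd81 was higher by 0.33, 0.36 and 0.36 in HHcy and by 0.23, 0.32 and 0.32 in WD over control (immature or transitional, naive follicular, B1-like). Thinned to 1000 UMIs, Cd81 in WD over control turned to -0.0020 in the immature or transitional and -0.11 in the naive follicular subset. Btk was lower in all 3 subsets of both treated libraries, with log2 ratios of -0.56 to -0.18. For Cd81 and Btk the interval left out 0 in 4 of the 6. Syk was also lower in all 3 subsets, by -0.17 to -0.13 in HHcy and -0.38 to -0.01 in WD over control. Cd72 was higher in all 3, by 0.04 to 0.92 in HHcy and 0.01 to 0.37 in WD. For Syk and for Cd72 the interval left out 0 in 2 of 3 subsets in HHcy and 1 of 3 in WD. Thinned to 1000 UMIs, Cd72 in WD over control turned to -0.075 in the naive follicular and -0.074 in the B1-like subset. Over sub-clusters 0 to 5 taken singly, Cd79b and Cd81 were higher and Btk lower in 6 of 6 in both comparisons with control, and Cd79a was higher in 6 (HHcy) and 5 (WD). Cd72 was higher in 6 (HHcy) and 4 (WD), and Syk in 0 and 2. No share over all genes is set beside these counts, so they do not show that such runs are particular to these genes. The comparisons with control share that control library. No replicate is available to set these shifts against.

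Other genes of B cell receptor signalling, 88 in 5 lists, shifted little as lists. In HHcy over control, 5 of 88 were higher past the limit, against 5.29% of all genes, and 6 lower, against 10.5%, with a list median of 0.01 against -0.04 over all genes. In WD over control 1 of 87 was higher (3.72% of all genes) and 1 lower (4.91%), with medians of 0.048 for the lists and -0.0042 for all genes. In HHcy over WD 4 of 87 were higher (4.98%) and 5 lower (8.66%), with medians of -0.05 and -0.03. Among antigen receptor chains, Ighd, the heavy chain of mature naive B cells, stood at 254, 611 and 305 CPM, and Iglc1, a light chain constant gene, at 444, 472 and 661 CPM. Rasgrp3, an activator of Ras, was at 62.9, 124 and 65.5 CPM and the adaptor gene Pik3ap1 at 137, 202 and 165 CPM. Of the inhibitory receptors, Fcrl1 was at 60.3, 104 and 81.4 CPM, Fcrl5 at 41.5, 25.4 and 33.9 CPM and Pirb at 44.4, 29.0 and 45.8 CPM. The tetraspanin gene Cd9 was at 76.1, 38.8 and 72.2 CPM, and Nfkbia, an inhibitor of NF-kappaB, at 332, 227 and 317 CPM. Lck, at 17.6, 19.3 and 11.9 CPM, was low throughout. With the same subset mix, Ighd stood at 0.21, Rasgrp3 at 0.04 and Cd9 at -0.19 in HHcy over control, and 2 of the 88 genes passed the limit there, where 9.34% of all genes did.

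Genes whose pattern was most like each member's were found over 24 units of cell class and library and over 23 units of B cell sub-cluster and library. These units share libraries, so the correlations are descriptions. Over classes, Cd79a was most like Fcmr (r = 0.98) and Ms4a1 (0.96), Cd22 like Gm31243 (0.97), and Cr2 like Fcer2a (0.90). Cd72 was most like Ly86 (0.95) and H2-Aa (0.90), and Cd81 like Gkap1 (0.95). Btk and Syk were both most like Lyn (0.88 and 0.91). Within B cells, Cr2 was most like Icosl (0.97), Pxdc1 (0.96) and Fcer2a (0.95), and Cd72 like Hvcn1 (0.97) and Cnr2 (0.95).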

How the data were processed

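Gene expression of single aortic CD45+ cells was measured in 3 libraries, 1 per group. The authors deposited UMI counts per gene and barcode, made with Cell Ranger on build mm10; version 2.2.0 is given per the submitters' processing notes and version 4.0.0 per the file headers. Feature names and barcodes were taken as deposited. Whether counting used strand is not given in the sources used here. Cd22, Cd72, Cd81 and Btk overlap other annotated genes.

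Barcodes with at least 200 genes and at most 10% mitochondrial UMIs were kept. Multiplets were barcodes reaching the marker limit of 2 or more of 5 lineages; no doublet caller was run. Cells were clustered (Leiden, resolution 1, 2000 variable genes, 30 components, 20 neighbours; leidenalg 0.10.2, scikit-learn 1.9.0) without the 9 genes, and B cells again at resolution 0.5. Naming limits were set after the data were seen. Counts were summed per cell group and library and given per 1000000 UMIs (CPM), with exact Poisson intervals; ratios have exact conditional binomial intervals and shares exact Clopper-Pearson intervals, which cover counting error only. Total depth was 66789257, 105180370 and 93164076 UMIs (control, HHcy, WD). No p-value was computed. A gene entered a comparison with 50 UMIs over both libraries. The ratio and thinning code was tested on simulated data. The members and lists were chosen with earlier results of these data known. Named pathway genes are the 10 past the limit with the largest difference from control. Alternatives covered scaling, multiplets, the mitochondrial limit, thinning, clustering and subset mix.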

Additional observations from a re-analysis of the deposited data

Results flagged for a closer look

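Some ratios between libraries had intervals on opposite sides of 0 in different kinds of cells; the differences between those ratios were not tested. All values are log2 ratios of CPM.

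For Cr2, HHcy over control was 1.19 and 0.79 in the B1-like sub-clusters 2 and 3, and -0.19 in naive follicular B-like cells. Without the UMIs of cells with 5 or more, naive follicular Cr2 stood at 155 CPM in control and 151 CPM in HHcy. In B1-like cells as summed, Cr2 was then at 8.92 CPM in control and 16.6 CPM in HHcy. The lymphoid background of Cr2 was also higher in HHcy (8.53 CPM) than in control (1.63 CPM). For Cd72, HHcy over control was 0.29 in immature or transitional B-like cells, 0.69 in sub-cluster 2 and 1.495 in sub-cluster 3, against -0.52 in macrophage/monocyte-like cells. HHcy over WD was 0.74 and 1.26 for Cd72 in sub-clusters 2 and 3, and -1.38 in macrophage/monocyte-like cells. The macrophage/monocyte-like ratios are over the whole class and were not split by cluster. Its Cd72-rich cluster, led by Ms4a7, Mmp12 and Trem2, differed in cell number between libraries. The part of that mix in the ratios was not tested. For Syk, HHcy over WD was 0.26 in immature or transitional B-like cells and 0.16 in macrophage/monocyte-like cells, against -0.13 in naive follicular B-like cells and -0.24 in sub-cluster 2.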

How the results depend on the processing

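No paired analysis was possible because each group has 1 library. Of 27 ratios over all B cells (9 genes, 3 pairs of libraries), 16 kept 1 sign in all settings. With the same subset mix, the number of genes past the limit over all B cells was 0 in each pair (as summed 2 in HHcy over control, 1 in WD over control and 1 in HHcy over WD), and Cr2 in HHcy over control turned to -0.0844. With cells weighted equally, an alternative added after seeing the data, it was 1 in HHcy over control, and 1 in the immature or transitional subset (0 as summed); 15 genes of the pathway lists passed in HHcy over WD (9 as summed). Thinning to 1000 UMIs gave 0 over all B cells in HHcy over control and 15 pathway genes in HHcy over WD. Thinned within subsets, in HHcy over control it gave 2 (immature or transitional), 2 (naive follicular) and 1 (B1-like), in WD over control 1 in each subset, and in HHcy over WD 1 in the immature or transitional and 1 in the B1-like subset. As summed, these were 0, 1 and 2 in HHcy over control, 0 in each subset in WD over control, and 0 and 2 in HHcy over WD. For thinning 1 seeded draw was used, and the cause of its lower Cr2 and Cd72 ratios was not tested. Centred on the median of all genes, naive follicular B-like cells had 0 in HHcy over control. The share of all genes past the limit is not given for thinning, equal weighting or centring. The counts in those settings thus cannot be set against it. Scaling shifts of all genes lay between -0.04 and 0.02 on the log2 scale. Leaving out the sub-cluster led by the macrophage gene Retnla, also added after seeing the data, moved none of the 27 ratios outside its interval. Group differences cannot be told apart from differences between single libraries.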

Other observations

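Endothelial-like cells held Cr2 UMIs in few cells. In the control library 1 of 11 such cells held all 32 Cr2 UMIs, and in the WD library 1 of 32 cells held all 35, while in the library labelled HHcy 3 of 22 cells held 1 UMI each. No naive follicular B-like cell held more than 15 Cr2 UMIs.

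Among the unnamed B cell sub-clusters, the cycling one, led by Pclaf and Mki67, had Cd79a at 799 CPM in 55 control cells and 1170 CPM in 36 HHcy cells, below every named subset of the same library, with Cd79b per Cd79a at 0.74 and 0.65. The sub-cluster led by Mettl1, Srm and Hspd1, genes of ribosome production and protein folding, had Syk at 203 CPM in 30 control cells and 193 CPM in 119 HHcy cells, against 350.0 to 569.8 CPM in the named subsets of those libraries. Its Cr2 stood at 255 and 234 CPM, against 237 and 208 CPM in the naive follicular B-like cells of those libraries.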
